A study of Homo sapiens with 9 samples.

Results

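The genes described here drive and guard the passage from G1 into S phase: the D cyclins CCND1 and CCND3, the kinases CDK4, CDK6 and CDK2, the E cyclins CCNE1 and CCNE2, the kinase inhibitor CDKN1B, the retinoblastoma gene RB1 and the transcription factor gene E2F1. They were chosen by symbol, and 9 of the 10 had a row in the array table, each with 1 row, among 14884 named genes in all. CDKN1B was not analysed here, because the platform gene table used to name the rows pairs no row with it. RNA had been measured on Affymetrix Human Gene 2.0 ST arrays in MDA-MB-231, an established triple-negative breast cancer cell line. The 3 groups were controls with no agent at time 0, cells given 500 nM JQ1 for 12 h and cells given 500 nM JQ1 for 24 h, with 3 arrays in each. JQ1 is a small molecule that displaces the BET bromodomain proteins from acetylated chromatin. All groups came from a single cell line, no vehicle is named for the controls, and the controls have 1 time only, so JQ1, its solvent and time in culture cannot be told apart. Whether the replicates came from different cultures is not stated in the labels, and the p-values therefore reflect only array-to-array spread, perhaps technical.

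In textbook accounts, D cyclins rise with growth signals and bind CDK4 or CDK6. The complexes phosphorylate the RB1 protein, which then releases E2F factors, and E2F factors in turn raise the E cyclins and E2F1 itself. E cyclins activate CDK2, which completes the phosphorylation of RB1 and starts replication. CDKN2A, whose p16 product blocks CDK4 and CDK6, is deleted in MDA-MB-231.

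The array values are on a log2 scale, so a difference of 1 is a factor of 2, and they show each gene relative to the rest of its array. A gene was called when its adjusted p was under 0.05 in a limma fit across all 14884 genes and 9 arrays. The array medians lay between 4.92 and 4.96. Control 3 stood apart from the other controls: its values differed from those of controls 1 and 2 with an SD of 0.385 and 0.389, whereas controls 1 and 2 differed from each other with an SD of 0.213. Control 3 lay nearer to JQ1 12 h replicates 2 and 3 and JQ1 24 h replicate 2 (SD 0.314, 0.343 and 0.355). From JQ1 12 h replicate 1 and JQ1 24 h replicates 1 and 3 it differed by 0.388, 0.398 and 0.404. JQ1 arrays of the same group differed with an SD of 0.25 to 0.297. Fits without control 3 thus rest on controls 1 and 2, the most alike pair of all arrays. The difference of each G1 gene from control is given with and without control 3. Most of the markers measured went with the labelled line. VIM, AXL and MSN lay between 10.2 and 12.4 on every array while ESR1, PGR and KRT5 lay between 3.58 and 5.17. The platform gene table pairs no row with the listed markers CAV1 and CDH1. The epithelial gene EPCAM was less low, at 6.07 to 6.49, with a mean of 6.26 against a median of 6.13 over all genes. It was called lower after 12 h of JQ1 (log2 −0.28, adjusted p = 0.048) and not after 24 h (adjusted p = 0.052). CD44, fixed as a marker that should be high, read 7.15 to 8.11, and its mean of 7.48 lay under the upper quartile of all genes, 7.65. Of 6 leukocyte markers 2 had a named row, CD14 and LYZ, and both stayed between 3.69 and 4.57.

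After JQ1 the D-type kinases fell while the G1 cyclin gene CCND1 rose. CDK6 was 1.83-fold lower at 12 h and 2.12-fold lower at 24 h, and CDK4 was 1.49-fold and 1.53-fold lower. CCND1 was 1.59-fold higher at 24 h. At 12 h, 2 of the 9 genes were called, both lower, which is 22.2% of them against 7.93% of all genes (4.39% called lower and 3.54% called higher). At 24 h, 3 of 9 were called, 2 lower and 1 higher, which is 33.3% against 11.5% of all genes (6.34% lower and 5.17% higher). The median log2 difference of the 9 genes was 0.19 at 12 h and −0.17 at 24 h, against 0.011 and 0.013 for all genes. Without control 3 it was 0.32 and 0.18, so the sign at 24 h turned. Both comparisons use the same 3 control arrays. Without control 3 the genes called numbered 6 at 12 h, 4 higher and 2 lower, against 20.1% of all genes (9.57% higher and 10.5% lower). At 24 h they numbered 5, 3 higher and 2 lower, against 20.9% (9.61% and 11.3%). With all arrays, treated and control values did not overlap for 4 of the 9 genes at 12 h, against 22.2% of all genes, and for 5 at 24 h, against 26.1%.

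**Figure D1:**
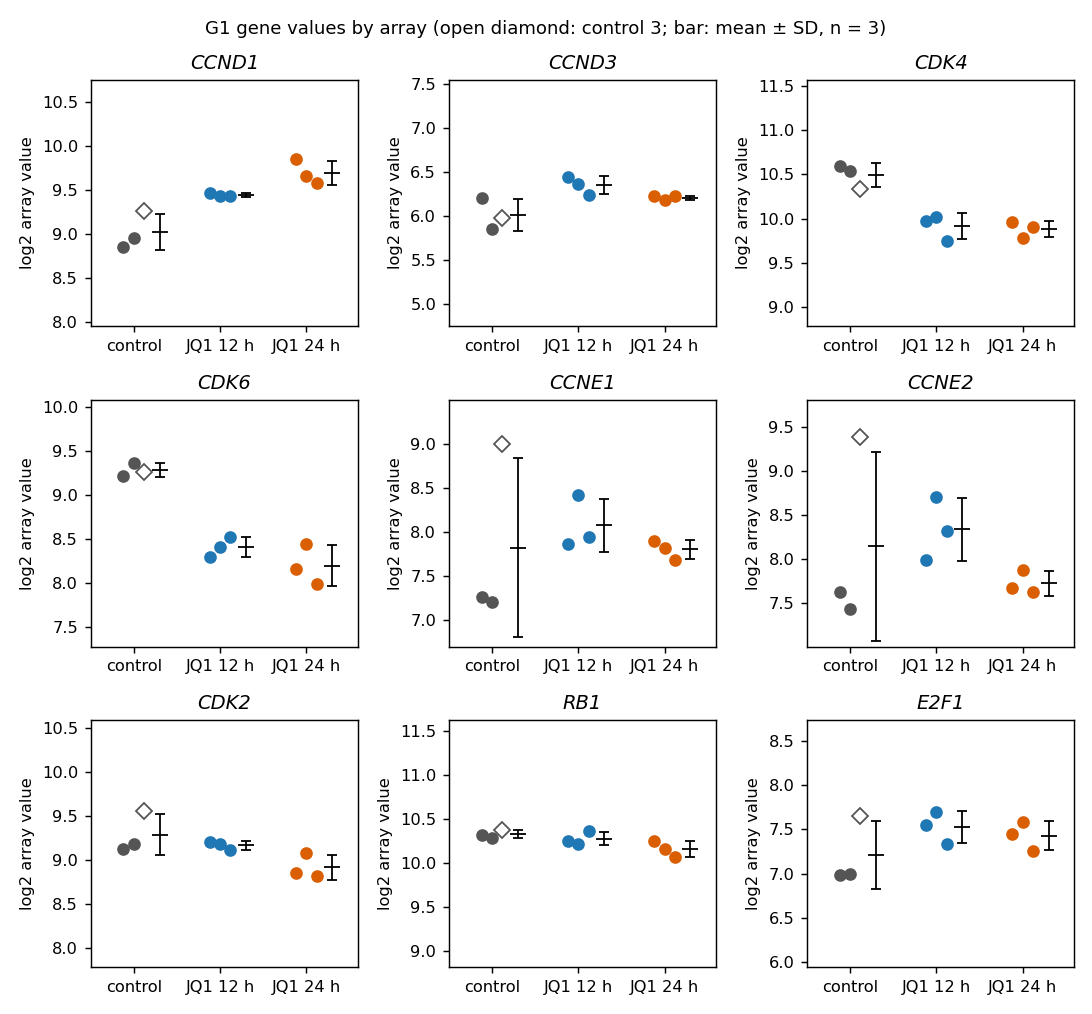
Log2 array value (vertical axis) of the 9 genes on each array by group (horizontal axis), with points for arrays, an open diamond for control 3 and a bar for the mean ± SD of 3 arrays; every panel spans 2.8 log2 units. CDK4 and CDK6 are lower in all 6 JQ1 arrays than in any control, CCND1 is higher in all 6, and CCNE1 and CCNE2 have a single high control.

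CDK6 encodes one of the partner kinases of the D cyclins. It read 9.22, 9.37 and 9.26 in controls 1, 2 and 3. After JQ1 it read 8.30, 8.41 and 8.53 at 12 h and 8.16, 8.45 and 7.99 at 24 h. All 6 treated arrays lay below all 3 controls, and control 3 lay between the other controls. JQ1 arrays differed from control by a log2 difference of −0.87 (SE 0.12, adjusted p = 0.0040) at 12 h and −1.09 (SE 0.12, adjusted p = 0.0011) at 24 h. By p-value CDK6 ranked 159 of 14884 genes at 12 h and 92 at 24 h. Without control 3 the differences were −0.88 and −1.10. The call held whichever array was left out, with adjusted p up to 0.0213 at 12 h and 0.00758 at 24 h.

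CDK4, the other D cyclin kinase and a known MYC target, read 10.60, 10.54 and 10.34 in the controls. It read 9.97, 10.02 and 9.75 at 12 h and 9.96, 9.78 and 9.90 at 24 h. Again no treated array reached the lowest control, which was control 3. The log2 difference was −0.58 (SE 0.10, adjusted p = 0.011) at 12 h and −0.61 (SE 0.10, adjusted p = 0.0065) at 24 h, and without control 3 it was −0.65 and −0.69. Leaving out any single array kept CDK4 called, though at 12 h with adjusted p up to 0.0497. Between the times CDK4 had a log2 difference of −0.04, with a 95% interval from −0.27 to 0.20.

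The promoter windows of these kinases are printed because they fell together, and because CDK4 carries repeated E-boxes, the motif that MYC and its partner MAX bind. They are the 250 bases before the annotated start site, from RefSeq on GRCh38.p14, 5′ to 3′ on the gene's strand. Capitals mark CACGTG (the E-box), GGGCGG (the GC box) on either strand and the E2F letters given further on. CDK4 lies at chr12:57752311-57752560 on the minus strand. RefSeq lists 2 starts for CDK6, and the outer is shown, at chr7:92836574-92836823 on the minus strand.
CDK4: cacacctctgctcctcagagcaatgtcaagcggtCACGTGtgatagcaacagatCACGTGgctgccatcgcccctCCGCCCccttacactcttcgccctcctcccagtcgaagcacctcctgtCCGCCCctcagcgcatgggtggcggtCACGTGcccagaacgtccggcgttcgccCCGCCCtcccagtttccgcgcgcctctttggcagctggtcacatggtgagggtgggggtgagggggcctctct
CDK6: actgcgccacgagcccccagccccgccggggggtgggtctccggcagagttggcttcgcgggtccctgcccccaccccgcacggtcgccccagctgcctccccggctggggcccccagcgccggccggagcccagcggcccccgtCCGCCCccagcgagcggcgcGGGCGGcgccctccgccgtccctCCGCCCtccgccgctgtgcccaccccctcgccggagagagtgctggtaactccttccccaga
CACGTG occurs 3 times in the CDK4 window, beginning 216, 196 and 101 bases before the start. Of 35116 RefSeq windows of 300 bases, which run from 250 before to 50 after the start, 7.26% held CACGTG and 0.094% held 3 or more. The CDK6 stretch printed holds 3 GC boxes and no CACGTG, and the CDK4 stretch holds GC boxes too. The GC box was found in 45.0% of windows, and 15.8% held 3 or more. The 300-base window of CDK6 has 1 CACGTG in the 50 bases after the start, which are not printed. The CDK4 window was chosen for its E-boxes, so the share over all windows is a description and no test. A match in letters describes the sequence and shows no binding in these cells, and a role of MYC was not tested.

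CCND1, the main D cyclin of breast epithelium, moved opposite to its kinases. It read 8.86, 8.96 and 9.26 in the controls, 9.47, 9.43 and 9.43 at 12 h, and 9.85, 9.66 and 9.58 at 24 h. The 3 groups did not overlap, with the controls lowest and the 24 h arrays highest. The log2 difference from control was 0.42 (SE 0.11, adjusted p = 0.057) at 12 h, short of the threshold, and 0.67 (SE 0.11, adjusted p = 0.0067) at 24 h. With all arrays the 12 h call was gained with array weights (adjusted p = 0.00204), with dim genes left out (adjusted p = 0.0464) or after quantile normalization (adjusted p = 0.0376). Control 3 was the highest control, and without it CCND1 was called at both times (log2 0.54, adjusted p = 0.0033, and log2 0.79, adjusted p = 0.00039). The 24 h value exceeded the 12 h value by 0.25 (95% interval −0.004 to 0.51, adjusted p = 0.76), a difference that did not pass the test. The call at 24 h held whichever array was left out, with adjusted p up to 0.0302.

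CCND3, another D cyclin, read 6.20, 5.85 and 5.98 in the controls. It read 6.44, 6.36 and 6.24 at 12 h and 6.22, 6.18 and 6.22 at 24 h. The 12 h arrays lay above the controls by as little as 0.04, and the 24 h arrays overlapped them. Neither log2 difference passed the test (0.33, 95% interval 0.11 to 0.55, adjusted p = 0.074 at 12 h; 0.20, interval −0.03 to 0.41, adjusted p = 0.26 at 24 h). Control 3 lay between the other controls, and leaving it out gave 0.32 and 0.18, again not called. Without control 1, CCND3 was called at 12 h (adjusted p = 0.0434).

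**Figure D2:**
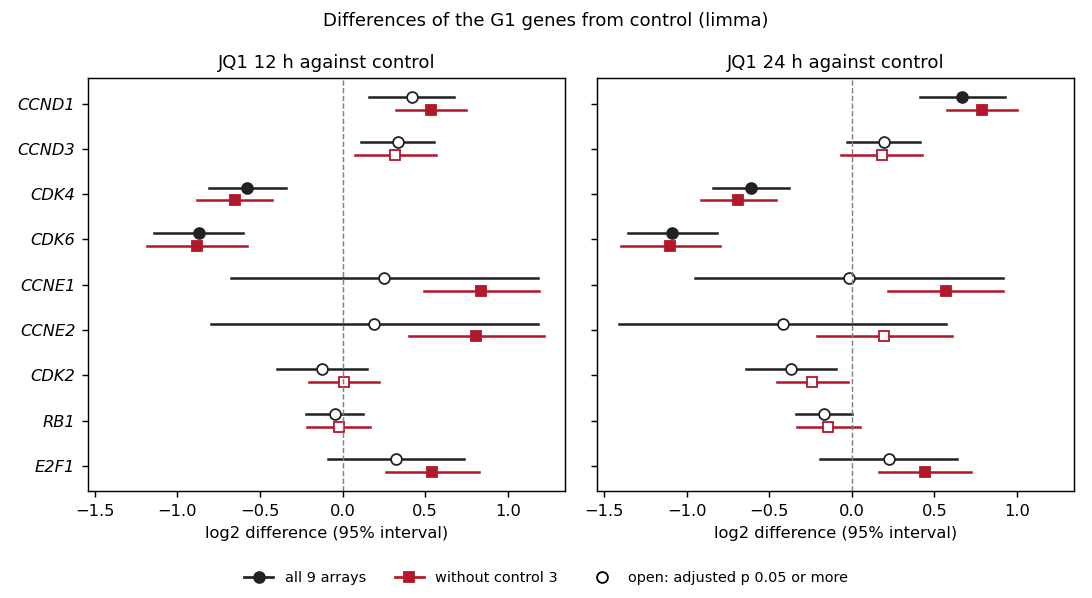
Log2 difference from control (horizontal axis) with its 95% interval for the 9 genes (vertical axis) at 12 h (left) and 24 h (right), from the fit on all 9 arrays (circles) and without control 3 (squares); filled symbols have an adjusted p under 0.05. CDK4 and CDK6 keep their place in both fits, while the intervals of CCNE1 and CCNE2 shorten and shift upward without control 3.

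The E cyclins gave no call with all 9 arrays weighted equally, and their reading turned on control 3. CCNE1 read 7.26 and 7.20 in controls 1 and 2 and 8.99 in control 3. It read 7.86, 8.42 and 7.94 at 12 h and 7.90, 7.82 and 7.68 at 24 h. All 6 treated arrays thus lay above controls 1 and 2 and below control 3. With all arrays its log2 difference was 0.25 (95% interval −0.68 to 1.18, adjusted p = 0.82) at 12 h and −0.02 (−0.95 to 0.91, adjusted p = 0.99) at 24 h. Without control 3 it was 0.84 (SE 0.15, adjusted p = 0.0042) and 0.57 (SE 0.15, adjusted p = 0.027), and CCNE1 was called higher at both times. With array weights in limma CCNE1 was called higher at 12 h (log2 0.83, adjusted p = 0.0231) and not at 24 h (log2 0.47, adjusted p = 0.179).

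CCNE2, the paralog that also activates CDK2, had the same layout at 12 h. It read 7.62 and 7.43 in controls 1 and 2 and 9.38 in control 3, and 7.99, 8.70 and 8.32 at 12 h. At 24 h it read 7.67, 7.88 and 7.62, and overlapped control 1. The log2 difference was 0.19 (95% interval −0.80 to 1.18, adjusted p = 0.88) at 12 h and −0.42 (−1.41 to 0.57, adjusted p = 0.64) at 24 h. Without control 3 CCNE2 was called higher at 12 h (log2 0.81, SE 0.18, adjusted p = 0.012) and not at 24 h (log2 0.20, adjusted p = 0.56). Array weights also gave a call at 12 h (log2 0.81, adjusted p = 0.0362) and none at 24 h (log2 0.07, adjusted p = 0.886). The 3 arrays of 24 h all lay below the 3 of 12 h, with a log2 difference of −0.61 (95% interval −1.60 to 0.38, adjusted p = 0.88). That difference did not pass the test, and it did not without control 3 either (adjusted p = 0.18).

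The gap between control 3 and the mean of controls 1 and 2 was 1.76 for CCNE1 and 1.85 for CCNE2. Only 0.403% and 0.356% of all genes had a larger one in either direction. It was 0.66 for E2F1, 0.39 for CDK2, 0.35 for CCND1 and −0.23 for CDK4. For RB1, CDK6 and CCND3 it lay between −0.04 and 0.07. Control 3 gave the highest of all 9 values for 4 genes, CCNE1, CCNE2, CDK2 and RB1. What set control 3 apart was not tested, and the labels name no difference between the controls.

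CDK2, the kinase that E cyclins activate, read 9.12, 9.18 and 9.55 in the controls. It read 9.20, 9.18 and 9.11 at 12 h and 8.85, 9.08 and 8.82 at 24 h. The 24 h arrays lay below every control and every 12 h array, the nearest by 0.04 and 0.03. Its log2 difference from control was −0.12 (adjusted p = 0.66) at 12 h and −0.37 (SE 0.12, 95% interval −0.64 to −0.10, adjusted p = 0.086) at 24 h, and neither was called. With array weights CDK2 was called lower at 24 h (adjusted p = 0.0335). Without control 3 the difference was 0.01 and −0.24 (adjusted p = 0.12 at 24 h), so at 12 h the sign turned.

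RB1, the substrate that holds E2F factors in check, varied least of the 9 genes, with a range of 0.31 over the arrays. It read 10.32, 10.28 and 10.37 in the controls, 10.25, 10.22 and 10.36 at 12 h, and 10.25, 10.16 and 10.07 at 24 h. The 24 h arrays lay just below the controls, the nearest by 0.03. The log2 difference was −0.05 (95% interval −0.22 to 0.12, adjusted p = 0.81) at 12 h and −0.17 (interval −0.34 to 0.00, adjusted p = 0.21) at 24 h. Without control 3 the differences were −0.02 and −0.14, neither of them called.

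E2F1, the activator that RB1 restrains, read 6.98 and 6.99 in controls 1 and 2 and 7.65 in control 3. It read 7.55, 7.70 and 7.34 at 12 h and 7.45, 7.58 and 7.26 at 24 h. Every treated array was above controls 1 and 2, and control 3 lay within the 12 h range. Against all controls its log2 difference was 0.32 (SE 0.18, adjusted p = 0.37) at 12 h and 0.22 (SE 0.18, adjusted p = 0.53) at 24 h. Without control 3 it was 0.54 (SE 0.12, adjusted p = 0.013) and 0.44 (SE 0.12, adjusted p = 0.031), both called higher. With array weights in limma E2F1 was also called higher at 12 h (log2 0.54, adjusted p = 0.00991) and 24 h (log2 0.38, adjusted p = 0.0472).

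E2F factors bind the promoters of E2F1 and of the E cyclins in textbook accounts. The upstream stretches of E2F1 and CCNE1 are printed, and both genes were called higher at both times once control 3 was left out. CCNE2 was called higher in that fit at 12 h only, and its upstream stretch is not examined here. E2F1 lies at chr20:33686386-33686635 on the minus strand and CCNE1 at chr19:29811741-29811990 on the plus strand, both from RefSeq on GRCh38.p14. Capitals mark TTTCGCGC, TTTGGCGC, TTTCCCGC or TTTGCCGC (E2F letters), CACGTG and GGGCGG, each on either strand.
E2F1: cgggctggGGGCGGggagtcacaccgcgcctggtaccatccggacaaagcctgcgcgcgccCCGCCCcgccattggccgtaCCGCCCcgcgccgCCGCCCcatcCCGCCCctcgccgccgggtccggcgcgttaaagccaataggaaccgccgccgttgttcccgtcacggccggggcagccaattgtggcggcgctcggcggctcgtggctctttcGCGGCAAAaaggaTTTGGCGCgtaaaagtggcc
CCNE1: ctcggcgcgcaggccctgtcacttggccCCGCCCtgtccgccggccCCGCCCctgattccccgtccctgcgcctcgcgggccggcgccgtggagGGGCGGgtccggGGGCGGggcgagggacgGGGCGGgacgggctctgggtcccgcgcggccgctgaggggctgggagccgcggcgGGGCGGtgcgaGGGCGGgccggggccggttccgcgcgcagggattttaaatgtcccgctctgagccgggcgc
E2F1 holds 2 E2F matches close to its start, TTTGGCGC beginning 20 bases before it and, on the other strand, TTTGCCGC beginning 33 bases before it. Of the 35116 windows 3.31% held at least 1 such match and 0.145% held 2 or more. The CCNE1 stretch holds 7 GC boxes, of which 15.8% of windows held 3 or more, and none of the E2F letters. That says only that these letters are not in this stretch. No promoter is printed for the other genes.

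**Figure D3:**
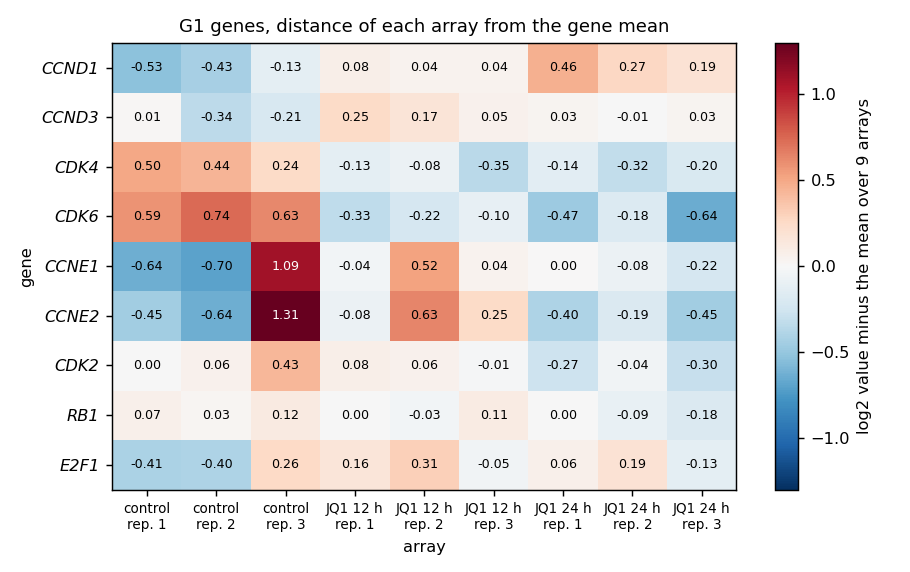
Distance of each array's log2 value from the gene's mean over 9 arrays (colour and printed number, log2 units), with genes in rows and arrays in columns. CDK4 and CDK6 are positive in all controls and negative in all JQ1 arrays, CCND1 is the reverse, and CCNE1 and CCNE2 share a peak at control 3 and a smaller one at JQ1 12 h replicate 2.

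Across the 9 arrays CDK4 and CDK6 followed each other (Pearson r = 0.85) and ran against CCND1 (r = −0.86 and −0.87). CCNE1 and CCNE2 followed each other (r = 0.94), and E2F1 followed CCNE1 (r = 0.84). With control 3 left out these were 0.85, −0.87, −0.91, 0.87 and 0.92. The arrays share 3 groups and the correlations describe these arrays only, with no test. JQ1 12 h replicate 2 was the highest of its group for CCNE1, CCNE2 and E2F1.

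The genes whose values over the 9 arrays were most like each member were sought among named genes with a mean of at least 6, that is 7468 candidates for each. CDK6 was followed by MSL2 (r = 0.999), the fatty acid ligase gene ACSL4 (0.991) and the ubiquitin ligase gene SIAH1 (0.984). CDK4 was followed by DPP7 (0.985), the RNA exosome gene EXOSC1 (0.982) and AUP1 (0.981). CCND1 was followed by the huntingtin gene HTT (0.975), CRIM1 (0.973) and ECI2 (0.973), and CCND3 by MARCKSL1 (0.950), SUGP1 (0.921) and SSBP3 (0.920). CCNE1 was followed by the kinase gene CSK (0.986), the replication fork gene DONSON (0.982) and SFXN1 (0.978), and CCNE2 by PARPBP (0.994), MRPL35 (0.985) and SFXN1 (0.983). CDK2 was followed by the kinesin gene KIF18B (0.986), the spindle checkpoint gene BUB1B (0.977) and the cyclin A gene CCNA2 (0.976). E2F1 was followed by the splicing gene PRPF8 (0.961) and the DNA repair genes PARP1 (0.956) and RECQL4 (0.937), and RB1 by RIMOC1 (0.948), MAP3K2 (0.939) and ZNF860 (0.937).

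Of 28 other G1 regulators listed, 17 had a row named by the platform gene table. At 12 h 1 rose and 1 fell, against 3.54% and 4.39% of all genes, and at 24 h 1 rose and 2 fell, against 5.17% and 6.34%. The median log2 difference was −0.17 and −0.29. E2F3, an activating E2F, fell from 8.70, 8.75 and 8.74 in the controls to 7.62, 8.07 and 7.87 at 12 h and 7.70, 7.85 and 7.62 at 24 h. No treated array came near a control, and control 3 sat with the others (1.83-fold lower, adjusted p = 0.0031 at 12 h; 2.01-fold lower, adjusted p = 0.0012 at 24 h; SE 0.11 on the log2 scale at both). E2F3 kept both calls whichever array was left out. AMBRA1, whose product directs D cyclins to degradation, rose by a log2 difference of 0.33 (adjusted p = 0.023) and 0.35 (adjusted p = 0.013), and by 0.37 and 0.40 without control 3. Its 12 h call was lost with a fit on the 2 groups (adjusted p = 0.0636), a trended prior (0.0522) or the replicate number as a block (0.0522). Leaving out control 1, control 2 or any JQ1 12 h array cost AMBRA1 its 12 h call (adjusted p up to 0.0926), and leaving out control 2 or JQ1 24 h replicate 1 cost it the 24 h call (up to 0.0513).

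RBL1, the RB1 relative p107, fell at 24 h (log2 −0.84, SE 0.20, adjusted p = 0.025), and without control 3 the difference was −0.64. The call was lost without control 2 or JQ1 24 h replicates 1 or 3 (up to 0.0958), with a fit on the 2 groups (0.0877) and with adjustment over every row (0.060). Without control 3, 1 of the 17 regulators rose and 4 fell at 12 h, and 1 rose and 7 fell at 24 h. Of all genes 9.57% and 10.5% were called higher and lower at 12 h without control 3, and 9.61% and 11.3% at 24 h. Of the 6 other CDK inhibitors listed, CDKN2A had a named row, and it read 4.88 to 5.05 on all arrays.

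Of 16 measured genes that E2F factors switch on in S phase, 1 had an unadjusted limma p under 0.05 at 12 h, against 3208 of all 14884 genes. At the adjusted threshold 0 of the 16 were called at 12 h with all arrays (median log2 −0.03), against 7.93% of all genes. At 24 h 0 rose and 3 fell (median −0.37), against 5.17% and 6.34% of all genes: MYBL2, a cell cycle transcription factor (log2 −1.17, adjusted p = 0.0086), the licensing factor gene CDC6 (−0.76, adjusted p = 0.024) and CCNA2 (−0.88, adjusted p = 0.046). Control 3 was highest here too, its median member 0.89 above the gene mean, against −0.17 and −0.18 in controls 1 and 2. Without control 3, 6 of 16 rose at 12 h and 0 fell (median 0.27), against 9.57% and 10.5% of all genes. At 24 h 3 rose and 3 fell (median −0.09), against 9.61% and 11.3%. Those that rose at both times without control 3, named after their values were seen, were RRM2, the small subunit of ribonucleotide reductase (log2 1.24 and 0.66), the helicase gene MCM4 (1.13 and 0.74) and the sliding clamp gene PCNA (0.84 and 0.58).

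Of the 8 genes of G2 and mitosis, 1 had an unadjusted limma p under 0.05 at 12 h, against 3208 of all 14884 genes. At the adjusted threshold 0 of the 8 were called at 12 h (median −0.02), against 7.93% of all genes. Without control 3, 7 of the 8 were higher at 12 h (median 0.17). Then 1 was called higher and 0 lower, against 9.57% and 10.5% of all genes. It was the spindle checkpoint gene BUB1 (log2 0.81, adjusted p = 0.0089), named after its values were seen. At 24 h, with all arrays, 4 fell and 0 rose (median −0.70), against 6.34% and 5.17% of all genes. CCNB1 and CCNB2, the mitotic cyclins, had log2 differences of −0.69 and −0.82 (adjusted p = 0.046 and 0.033). Their kinase CDK1 fell by 0.83 on the log2 scale (adjusted p = 0.034), and the spindle kinase gene AURKA had −0.89 (adjusted p = 0.020). Without control 3 these 4 were also called lower at 24 h, with differences of −0.49, −0.64, −0.72 and −0.67. In that fit 4 of the 8 fell and 0 rose, against 11.3% and 9.61% of all genes. The list was lowest in JQ1 24 h replicates 1 and 3, at −0.60 and −0.77 from the gene mean, against −0.05 in replicate 2. Without replicate 1 or replicate 3 of that group CCNB1, CCNB2, CDK1, AURKA, CCNA2 and CDC6 were not called (adjusted p up to 0.169). CCNB1, CDK1 and CCNA2 also lost the call without control 1, control 2 or any JQ1 12 h array, and CCNB2 without control 1 or JQ1 12 h replicates 2 or 3. A fit on the 2 groups compared called none of these 6 (adjusted p from 0.0689 to 0.134). With adjustment over every row all but AURKA lost the call (0.0571 to 0.102). CCNA2 (adjusted p = 0.0857), CCNB1 (0.0611) and CCNB2 (0.0509) also lost it with the replicate number as a block. Within the 24 h group, replicate 3 also gave the lowest value for 7 of the 9 G1 genes, all but CCND3 and CDK4. The part of this replicate difference in the results was not tested.

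**Figure D4:**
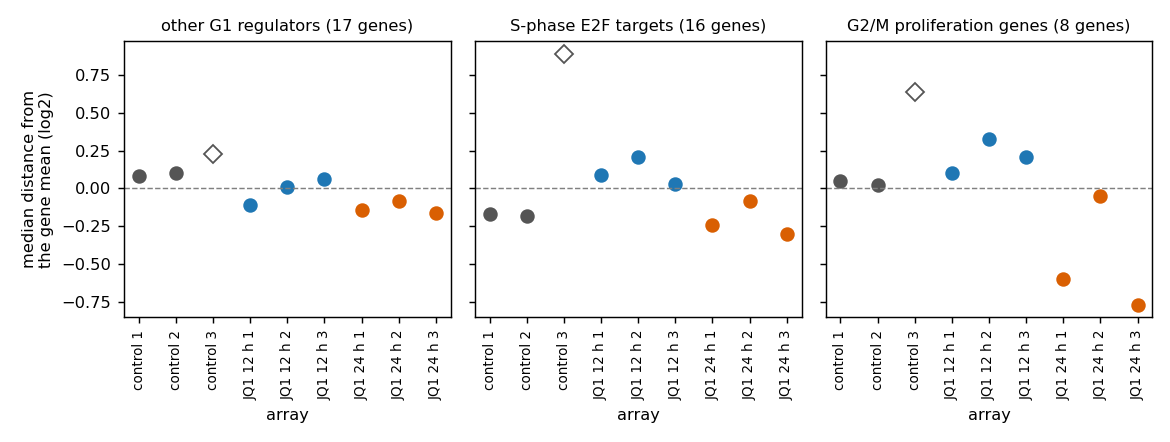
Median distance from the gene mean (vertical axis, log2 units) of 17 other G1 regulators, 16 S-phase E2F targets and 8 genes of G2 and mitosis on each array (horizontal axis; open diamond, control 3). Control 3 has the highest median in each panel, and JQ1 24 h replicates 1 and 3 have the lowest for the genes of G2 and mitosis.

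Between the treated groups limma called 0 of the 9 G1 genes, against 0.00672% of all genes (1 of 14884), and at an unadjusted p under 0.05 the numbers were 0 and 995. CCND1 was higher at 24 h than at 12 h in all arrays, and CCND3, CCNE2 and CDK2 lower in all. Such separation held for 4 of the 9 genes and for 12.9% of all genes. The 95% interval for the change of CDK6 from 12 h to 24 h ran from −0.48 to 0.06.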

How the data were processed

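The authors deposited 1 table of 53617 rows and 9 columns, 1 per array, and no scanner files were used here. Its values were taken as deposited log2 values, because they ran from 2.01 to 13.88 and 2 to the power of the highest is 15077, under the 65535 of a 16-bit scanner. Transcriptome Analysis Console was used, per the submitters' processing notes, with version, background correction, normalization and genome build not given in the sources used here. Near-equal array medians point to normalization between arrays, which removes any change in total RNA per cell.

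Gene names came from the platform's annotation (16098 with 1 symbol, 0 with several, 37519 unnamed here), and all 16098 matched RefSeq by gene ID. The row with the highest mean stood for a gene. All 9 arrays entered 1 linear model, with a mean for each group, in limma 3.58.1 (R 4.3.3), with empirical Bayes moderation (3.14 prior degrees of freedom), and p-values were adjusted over 14884 genes by the Benjamini-Hochberg method within each comparison. The script was tested on simulated data. No filter on dim genes was used. The number of arrays, 3 a group, limits the precision.

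The members, the gene lists and the rule for named genes were chosen with earlier results of these data known. The rule named every member of the G1 list, every listed gene called in a comparison, CDKN2A, and for each member the 3 genes of highest Pearson correlation. Alternatives were a fit on 2 groups, a trended prior, array weights, a filter at a mean of 5, quantile normalization, the mean of a gene's rows, adjustment over every row, a replicate block and leaving out each array.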

Additional observations from a re-analysis of the deposited data

How the results depend on the processing

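CDK6 and CDK4 at both times and CCND1 at 24 h kept their direction and call under every alternative run. Array weights, which gave control 3 a weight of 0.21 against 0.69 to 1.97 for the others, raised the G1 genes called to 6 at 12 h and 5 at 24 h, and all genes called to 3498, 3764 and, between the times, 14. Fits on the 2 groups compared called 577 and 994 genes at 12 h and 24 h, and adjustment over every row called 696 and 1121. Leaving out 1 array gave 2 to 6 G1 genes at 12 h, 3 to 5 at 24 h and 0 between the times, and 543 to 2986, 786 to 3111 and 1 to 22 of all genes; the highest number in each range came without control 3. With the replicate number as a block, 967 genes were called at 12 h, 1478 at 24 h and 1 between the times, with 2, 3 and 0 G1 genes. The replicate block changed no call of the 9 G1 genes. Among genes of the other G1, S-phase and G2/M lists called with all arrays, it cost AMBRA1 its 12 h call (adjusted p = 0.0522). It also cost CCNA2, CCNB1 and CCNB2 their 24 h calls (0.0857, 0.0611 and 0.0509). Same-numbered arrays of different groups did not deviate together (r of deviations from −0.32 to 0.22), so the numbers were not taken to pair the samples.

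Among the G1 genes, signs turned for CCNE1, CCNE2, CDK2 and CDK4. With array weights the 24 h difference became 0.47 for CCNE1 and 0.07 for CCNE2, and the 12 h difference 0.02 for AURKA, 0.08 for CCNA2, 0.16 for CCNB1 and 0.04 for MYBL2; quantile normalization gave CCNE1 0.00 at 24 h. Leaving out 1 array moved the 12 h difference from −0.06 to 0.84 for CCNE1, −0.17 to 0.81 for CCNE2, −0.20 to 0.01 for CDK2, −0.33 to 0.02 for AURKA, −0.29 to 0.13 for CCNA2, −0.15 to 0.16 for CCNB1, −0.12 to 0.18 for CCNB2 and −0.34 to 0.06 for MYBL2. It moved the 24 h difference from −0.33 to 0.57 for CCNE1 and −0.78 to 0.20 for CCNE2, and the difference between the times from −0.12 to 0.02 for CDK4. The cause was not tested. Of 459 recomputed values of the 9 genes, 432 kept direction and side of the threshold, 0 lost a call, 15 gained one and 13 turned sign, with CCNE1 at 24 h without control 3 in both counts. Of 510 values of AMBRA1, AURKA, CCNA2, CCNB1, CCNB2, CDC6, CDK1, E2F3, MYBL2 and RBL1, 59 lost a call, 2 gained one and 13 turned sign. The 2 gained were MYBL2 between the times, lower at 24 h, with array weights and without control 3 (adjusted p = 0.0311 without control 3). Other genes named were not recomputed in this count.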
